A study of Bos taurus with 12 samples.

Results

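Phosphatidylcholine synthesis and choline oxidation were followed in calf liver through 10 genes, PEMT, CHKA, PCYT1A, PCYT1B, PCYT2, CHPT1, CEPT1, CHDH, DMGDH and SARDH. They were given as a list of gene symbols and matched by Entrez gene ID, by a rule that holds no measured value but was written with earlier results of these data known. All 10 were found among the 30336 genes of the count files. Liver was biopsied from Holstein heifer calves at 4 d of age. The dams of 6 calves received a basal close-up diet without added Met (CON), and the dams of the other 6 received that diet with ethyl-cellulose rumen-protected Met (MET) through the last 28 d of gestation. After birth all calves were fed and managed alike, with colostrum from their own dams, so that diet in gestation and the dam's colostrum cannot be told apart, and per the study's methods only single-born heifers that met criteria of birth weight, calving ease and colostrum volume were kept.

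Liver makes phosphatidylcholine by 2 routes. In the CDP-choline route a choline kinase, a cytidylyl transferase and a cholinephosphotransferase act in turn on choline taken up from blood. In the other route PEMT adds methyl groups from S-adenosylmethionine to phosphatidylethanolamine. Phosphatidylcholine is the main coat phospholipid of the lipoproteins that liver secretes. Choline that does not enter these routes is oxidised in mitochondria by CHDH to betaine aldehyde and then betaine. Betaine gives a methyl group to homocysteine, and the dimethylglycine left is demethylated by DMGDH and SARDH in turn to sarcosine and glycine. Met supply and choline use thus meet at S-adenosylmethionine and at betaine.

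Expression is given as CPM, read counts scaled to TMM-adjusted library size, and counted reads ranged from 8277789 to 10397604 in a library. Read totals averaged 9070928 in CON and 9712121 in MET libraries (two-sided exact permutation test, p = 0.0519). The first index was shared by all CON libraries and a different one by all MET libraries, which means that the index cannot be told apart from diet. Libraries of CON replicates 1 and 4 (chi-square per gene 1.31) and of MET replicates 1 and 3 (1.23) were nearly identical, where counting noise alone gives about 1, while the other 64 pairs lay between 23.3 and 122. Each of the 2 close pairs was counted as 1 sample, which left 5 samples per diet for means and SD, and tests are given over the 12 libraries and over these 10 samples. The hepatocyte markers ALB, TTR, APOA1, APOB, SERPINA1, CPS1, HNF4A and TF were all tested and summed to between 96420 and 144100 CPM in CON samples and between 79970 and 115900 CPM in MET samples, and the mean of each of the 8 was lower in MET samples. Of these APOB alone had FDR at most 0.10 over the 12 libraries (log2 fold change −0.38, edgeR FDR = 0.0859, and 0.188 over the 10 samples), and its samples did not overlap, at 1113 to 1337 CPM in CON and 813 to 1043 CPM in MET. APOB has 14286 exonic bases, and with the trend on gene length given below removed its log2 fold change was −0.195. ALB averaged 62220 ± 13400 CPM in CON (SD, n = 5) and 39450 ± 8761 CPM in MET (SD, n = 5), with edgeR FDR = 0.107 over the 12 libraries, and TTR, with a lower mean in MET, had a fitted log2 fold change of 0.07. In bulk liver, fewer cells of a type and less RNA per cell cannot be told apart. Summed erythroid markers, of which 2 of 8 were tested, ran from 7.58 to 963.5 CPM in CON and from 57.1 to 461 CPM in MET samples. Each of the 6 Kupffer cell and macrophage markers had a higher mean in MET samples. Of these CD68 had a log2 fold change of 0.39 (edgeR FDR = 0.106 over the 12 libraries and 0.240 over the 10 samples). The 6 markers together ran from 720.5 to 1018 CPM in CON and from 827 to 1194 CPM in MET samples. Ranges overlapped likewise for the 4 endothelial markers (109.6 to 152.5 CPM in CON, 104 to 137 CPM in MET), the 4 stellate and fibroblast markers (516 to 786 CPM, 392 to 643 CPM), the 4 cholangiocyte markers (41.5 to 68.1 CPM, 23.7 to 61.6 CPM) and the 4 lymphocyte markers (4.65 to 13.5 CPM, 4.00 to 13.3 CPM). Of the stellate and fibroblast markers 1 of 4, LUM, had FDR at most 0.10 over the 12 libraries (log2 fold change −0.70, edgeR FDR = 0.0985, and 0.211 over the 10 samples), and none of the other 5 non-hepatocyte lists held such a marker. The part of cell composition in the values below was not tested.

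No difference between the diets passed the test in any of the 10 genes. At FDR at most 0.10 the quasi-likelihood test of edgeR, whose Benjamini-Hochberg adjusted p is given below as edgeR FDR, called 0 of 10 over the 12 libraries, beside a background of 4.41% of 13212 genes. At an unadjusted p of at most 0.05 the number was also 0 of 10, against 20.5% of all genes tested. Voom in limma called 0 of 10 and DESeq2 called 0 of the 9 genes other than PCYT1B, to which it gave no adjusted p, and both had 0 of 10 at an unadjusted p of at most 0.05. DESeq2 called 9.95% of all genes over the 12 libraries and 4.72% over the 10 samples. Over the 10 samples edgeR again gave 0 of 10, with 0 at an unadjusted p of at most 0.05, against a background of 0% for FDR at most 0.10 and 16.4% for the unadjusted p. MET and CON samples overlapped in all 10 genes, while 3.71% of all genes had no overlap (1.94% with MET higher and 1.77% with MET lower). Over the 12 libraries, 4 genes had a higher and 6 a lower estimate in MET, with a median log2 fold change of −0.08 beside −0.003 for all genes tested. These signs depended in part on a trend of log2 fold change with exonic length, given below under CHPT1. With it removed, PEMT was at 0.054 in place of −0.05, PCYT1A at −0.012 in place of −0.114 and SARDH at −0.07 in place of −0.165. DMGDH was then at −0.295 in place of −0.32, and CHPT1 moved further down, to −0.27 from −0.176. With the trend left in, the lowest unadjusted p over the 12 libraries was that of DMGDH (0.0706, edgeR FDR = 0.286), with a lower estimate in MET. It fell below 0.05 when MET replicate 6 (unadjusted p = 0.0154, edgeR FDR = 0.173) or CON replicate 1 (unadjusted p = 0.0322, edgeR FDR = 0.238) was left out. The intervals of the differences set how large an effect these data leave possible. For the 9 genes other than PCYT1B the 95% intervals over the 12 libraries lay within 0.628-fold and 1.53-fold, and for PCYT1B the interval ran from 0.578-fold to 1.79-fold. Over the 10 samples, with each close pair counted once, the limits were 0.592-fold and 1.54-fold for the 9 genes and 0.537-fold and 1.98-fold for PCYT1B.

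**Figure D1:**
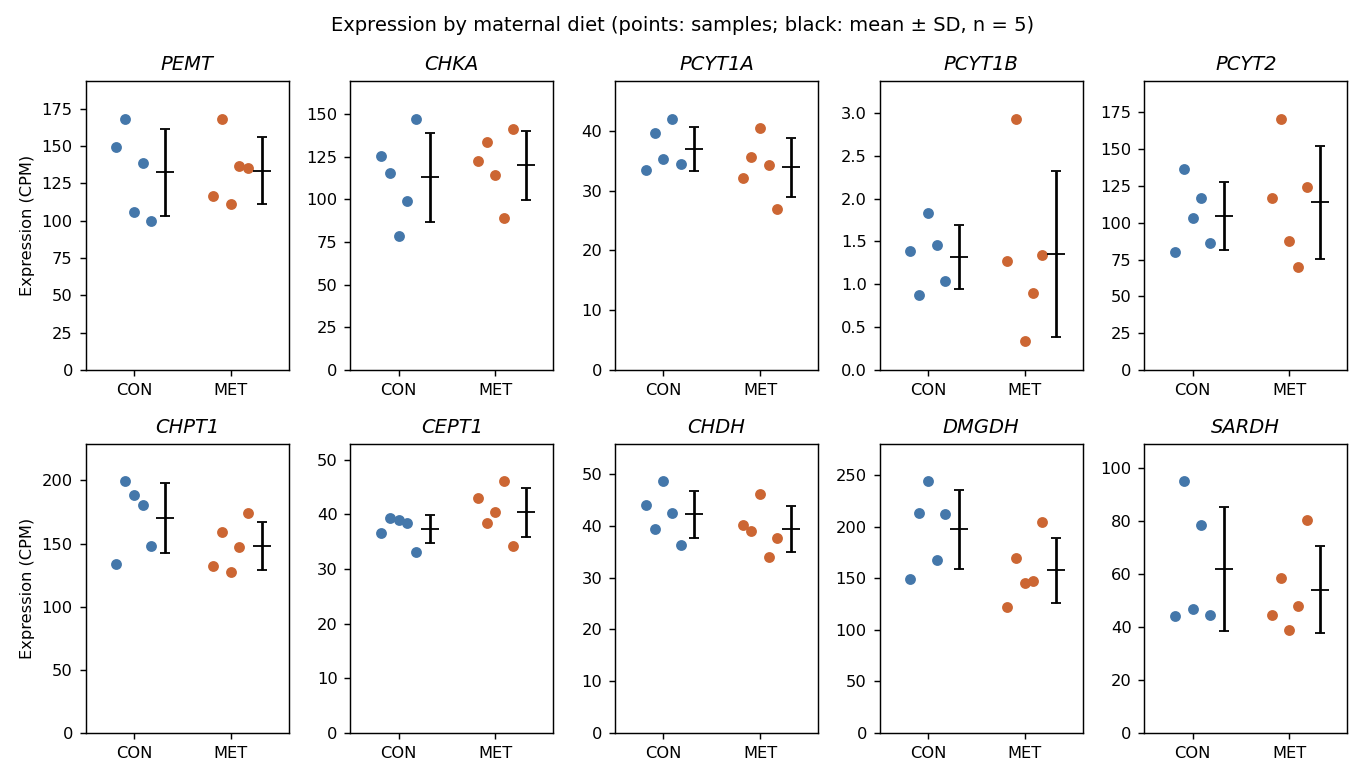
Expression in CPM on the vertical axes, which start at 0, by maternal diet for each of the 10 genes. Points are the 5 samples of a diet and black bars the mean ± SD, and in every panel the points of CON and MET overlap.

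PEMT (Entrez gene 360197) lies on chromosome 19 of the UMD 3.1.1 assembly, from 35384223 to 35420465 on the forward strand, with 19 exon blocks and 6014 exonic bases. Its product, phosphatidylethanolamine N-methyltransferase, consumes S-adenosylmethionine and is largely a liver enzyme. In CON, the sample of replicates 1 and 4 had 149 CPM, and replicates 2, 3, 5 and 6 had 168, 106, 138.5 and 99.6 CPM. In MET, the sample of replicates 1 and 3 had 116 CPM, and replicates 2, 4, 5 and 6 had 168, 111, 137 and 135 CPM. The highest sample of either diet was thus at the same level, and the lowest values of all 10 samples were in CON. Means were 132 ± 29.0 CPM in CON (SD, n = 5) and 133.5 ± 22.5 CPM in MET (SD, n = 5). The fold change was 0.966 (95% interval 0.775 to 1.20, edgeR FDR = 0.887) over the 12 libraries and 1.01 (0.778 to 1.31, edgeR FDR = 0.984) over the 10 samples. The log2 estimate, −0.05 with a standard error of 0.15, changed sign between these fits and carries no direction.

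CHKA (Entrez gene 514865, chromosome 29 from 46224903 to 46261142, reverse strand) encodes choline kinase alpha, which phosphorylates choline on entry into the CDP-choline route. CON samples ran from 78.35 CPM in replicate 3 to 147 CPM in replicate 6, with a median of 115 CPM. MET samples ran from 89.1 CPM in replicate 5 to 141 CPM in replicate 6, with a median of 122 CPM. The MET range lay wholly within the CON range. CHKA had a fold change of 1.05 over the 12 libraries (95% interval 0.836 to 1.31) and 1.06 over the 10 samples (0.811 to 1.39), with edgeR FDR = 0.843 and 0.845. CHKB, the second choline kinase, averaged 33.8 ± 4.90 CPM in CON (SD, n = 5) and 36.5 ± 4.46 CPM in MET (SD, n = 5). Per kb of exon, CHKA made up 74.1 ± 5.02% (SD, n = 5) of the 2 kinases in CON and 74.1 ± 2.89% (SD, n = 5) in MET samples.

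CTP:phosphocholine cytidylyl transferase, held to be the rate-limiting enzyme of the CDP-choline route, is encoded by PCYT1A and PCYT1B. PCYT1A (Entrez gene 100125779) spans 71431933 to 71484991 on the reverse strand of chromosome 1 and has 5928 exonic bases, 147 of which overlap SLC51A on the other strand. Reads were counted by strand, and whether reads of SLC51A reached the PCYT1A count was not tested. PCYT1A was at 33.4 CPM in the sample of CON replicates 1 and 4 and at 39.6, 35.2, 42.0 and 34.45 CPM in CON replicates 2, 3, 5 and 6. It was at 32.04 CPM in the sample of MET replicates 1 and 3 and at 35.6, 40.5, 34.35 and 26.9 CPM in MET replicates 2, 4, 5 and 6. Only MET replicate 6 and the sample of MET replicates 1 and 3 lay below every CON sample, and no MET sample lay above the highest CON sample. The fold change of PCYT1A was 0.924 (95% interval 0.785 to 1.09, edgeR FDR = 0.588) over the 12 libraries and 0.918 (0.761 to 1.11, edgeR FDR = 0.654) over the 10 samples.

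PCYT1B (Entrez gene 526175, chromosome X from 125681548 to 125829208, forward strand) was close to the limit of detection, with 3 to 30 reads per library. The CON libraries of replicates 1 to 6 held 15, 7, 16, 10, 14 and 10 reads. The MET libraries of replicates 1 to 6 held 11, 30, 16, 3, 8 and 13 reads. MET replicate 2 was the highest and MET replicate 4 the lowest of all libraries, the latter at the floor of 3 reads. That floor covers counting error only and equals 0.289 to 0.362 CPM on library sizes before TMM adjustment. With TMM adjustment, the 3 reads of MET replicate 4 equal 0.345 CPM. Mean expression of PCYT1B was 1.32 ± 0.374 CPM in CON (SD, n = 5) and 1.36 ± 0.964 CPM in MET (SD, n = 5), with a coefficient of variation of 28.3% and 71.1%. Its fold change of 1.02 over the 12 libraries (95% interval 0.578 to 1.79, edgeR FDR = 0.982) had the widest interval of the 10 genes and carries no direction. Without MET replicate 2 the log2 fold change was −0.36 in place of 0.02, with edgeR FDR = 0.581. Per kb of exon, PCYT1A made up 96.1 ± 1.17% (SD, n = 5) of the pair in CON and 95.6 ± 2.81% (SD, n = 5) in MET samples.

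PCYT2 (Entrez gene 510274, chromosome 19 from 51592082 to 51599290, forward strand) encodes the cytidylyl transferase of the parallel CDP-ethanolamine route, which makes phosphatidylethanolamine, the substrate of PEMT. CON samples had 80.3 CPM (replicates 1 and 4) and 137, 103, 117 and 85.9 CPM (replicates 2, 3, 5 and 6). MET samples had 116.5 CPM (replicates 1 and 3) and 170.4, 87.8, 69.8 and 124 CPM (replicates 2, 4, 5 and 6). The highest and the lowest of the 10 samples were both in MET. PCYT2 was the higher-reading cytidylyl transferase, and per kb of exon PCYT1A made up 10.6 ± 1.32% (SD, n = 5) of the sum of PCYT1A and PCYT2 in CON and 9.66 ± 3.59% (SD, n = 5) in MET samples. PCYT2 had a fold change of 1.14 (95% interval 0.844 to 1.53) over the 12 libraries and 1.09 (0.769 to 1.54) over the 10 samples, with edgeR FDR = 0.639 and 0.830.

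The last step joins the activated head group to diacylglycerol. CHPT1 (Entrez gene 511291, chromosome 5 from 65852704 to 65882212, forward strand), cholinephosphotransferase 1, acts on CDP-choline, and CEPT1 (Entrez gene 504650, chromosome 3 from 32339823 to 32376292, reverse strand) takes CDP-choline or CDP-ethanolamine. CHPT1 was at 134 CPM in the sample of CON replicates 1 and 4 and at 199, 188, 181 and 148 CPM in CON replicates 2, 3, 5 and 6. It was at 132 CPM in the sample of MET replicates 1 and 3 and at 159, 127, 147.5 and 174 CPM in MET replicates 2, 4, 5 and 6. Of the 5 CON samples 3 lay above every MET sample, and 2 lay among them. Means of CHPT1 were 170.1 ± 27.6 CPM in CON (SD, n = 5) and 148 ± 19.3 CPM in MET (SD, n = 5). The fold change was 0.885 (95% interval 0.729 to 1.08, edgeR FDR = 0.471) over the 12 libraries and 0.870 (0.700 to 1.08, edgeR FDR = 0.511) over the 10 samples. CHPT1 has the shortest exonic length of the 10 genes, 1395 bases, and 169 of these overlap SYCP3 on the other strand. Log2 fold changes fell with log2 exonic length across all 13212 genes (Pearson r = −0.264, across genes, which are not independent replicates). With that trend removed, CHPT1 had a log2 fold change of −0.27 in place of −0.18, with unadjusted p = 0.0397 and edgeR FDR = 0.255.

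CEPT1 was the steadiest of the 10 genes among CON samples, with a coefficient of variation of 6.81%, and it varied by 11.1% among MET samples. The 5 CON samples lay between 33.1 and 39.2 CPM, and the 5 MET samples between 34.2 and 46.0 CPM. Values of 3 MET samples exceeded the highest CON sample (the sample of replicates 1 and 3 at 43.0 CPM, replicate 4 at 40.4 CPM and replicate 5 at 46.0 CPM). The fold change of CEPT1 was 1.10 (95% interval 0.961 to 1.26, edgeR FDR = 0.416) over the 12 libraries and 1.08 (0.924 to 1.27, edgeR FDR = 0.616) over the 10 samples. Per kb, CEPT1 made up 12.45 ± 1.44% (SD, n = 5) of the pair with CHPT1 in CON and 15.1 ± 2.67% (SD, n = 5) in MET samples. The ranges of this share overlapped, at 11.2 to 14.9% in CON and 11.2 to 17.3% in MET.

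Choline oxidation begins with CHDH, choline dehydrogenase (Entrez gene 505218, chromosome 22 from 47625429 to 47717179, forward strand). CON samples had between 36.4 CPM (replicate 6) and 48.6 CPM (replicate 3), and MET samples between 34.0 CPM (replicate 5) and 46.3 CPM (replicate 4). Means were 42.2 ± 4.63 CPM in CON (SD, n = 5) and 39.4 ± 4.48 CPM in MET (SD, n = 5), a difference smaller than either SD. CHDH had a fold change of 0.930 (95% interval 0.805 to 1.08) over the 12 libraries and 0.934 (0.785 to 1.11) over the 10 samples, with edgeR FDR = 0.577 and 0.704. Of its 3450 exonic bases, 230 overlap a gene without a name on the other strand.

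DMGDH (Entrez gene 504453, chromosome 10 from 9993270 to 10066954, reverse strand), dimethylglycine dehydrogenase, had the largest estimated difference of the 10 genes. In CON, the sample of replicates 1 and 4 had 149.9 CPM, and replicates 2, 3, 5 and 6 had 213, 244, 168 and 213 CPM. In MET, the sample of replicates 1 and 3 had 122 CPM, and replicates 2, 4, 5 and 6 had 169.8, 145, 148 and 205 CPM. All 5 MET samples lay below the CON median of 213 CPM and 3 of them below every CON sample, while MET replicates 2 and 6 lay among the CON samples. The log2 difference was −0.32 (SE 0.16) over the 12 libraries and −0.32 (SE 0.17) over the 10 samples. DMGDH had a fold change of 0.801 (95% interval 0.628 to 1.02) over the 12 libraries and 0.799 (0.615 to 1.04) over the 10 samples. Neither passed the test (unadjusted p = 0.0706 and 0.0865, edgeR FDR = 0.286 and 0.377).

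SARDH (Entrez gene 614603, chromosome 11 from 104577773 to 104636956, reverse strand), sarcosine dehydrogenase, carries out the next demethylation and varied more among samples than DMGDH. CON samples had 44.35 CPM (replicates 1 and 4), 95.03 CPM (replicate 2), 46.9 CPM (replicate 3), 78.6 CPM (replicate 5) and 44.5 CPM (replicate 6). MET samples had 44.7 CPM (replicates 1 and 3), 58.6 CPM (replicate 2), 39.0 CPM (replicate 4), 47.8 CPM (replicate 5) and 80.6 CPM (replicate 6). In each diet most samples lay below 60 CPM, with CON replicates 2 and 5 and MET replicate 6 above 75 CPM. The coefficient of variation was 38.0% in CON and 30.3% in MET. SARDH had a fold change of 0.892 (95% interval 0.633 to 1.26, edgeR FDR = 0.726) over the 12 libraries and 0.876 (0.592 to 1.3, edgeR FDR = 0.751) over the 10 samples. Per kb of exon, DMGDH made up 84.4 ± 5.35% (SD, n = 5) of the pair with SARDH in CON and 83.4 ± 1.95% (SD, n = 5) in MET samples.

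**Figure D2:**
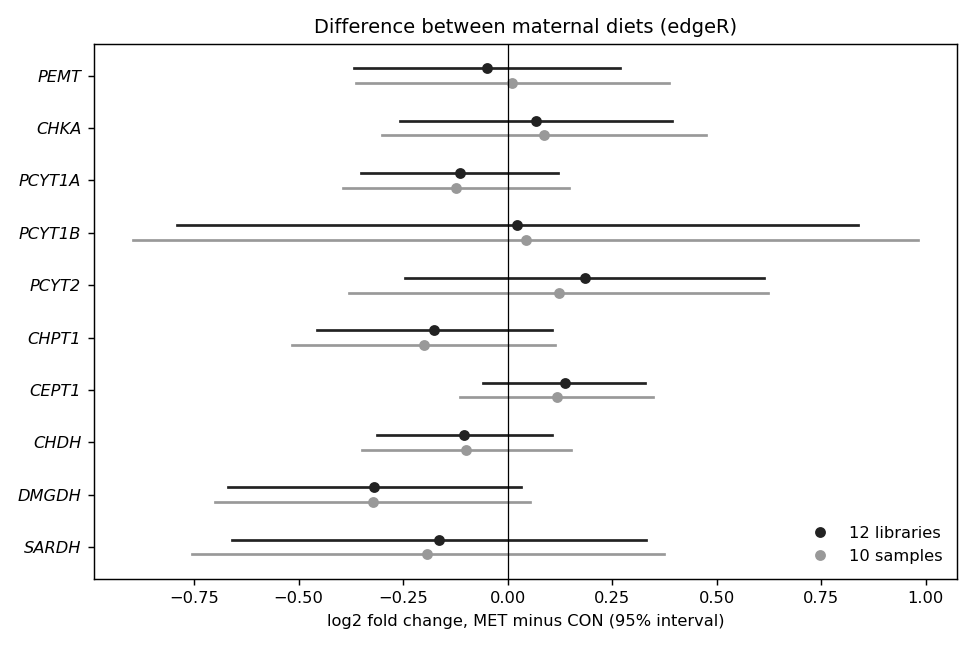
Log2 fold change, MET minus CON, of each gene on the horizontal axis, with 95% intervals from edgeR over the 12 libraries (black) and over the 10 samples (grey). Each interval crosses 0, and PCYT1B, with 3 to 30 reads per library, has the widest.

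Levels were compared between genes only per kb of exonic length, as CPM per kb over the 10 samples of both diets. CHPT1 was highest at 114 ± 18.1 CPM per kb (SD, n = 10) and lay above every value of the next gene. PCYT2 (56.2 ± 15.6 CPM per kb), CHKA (54.4 ± 10.4) and DMGDH (53.2 ± 11.7) followed without separation, since PCYT2 exceeded CHKA in 5 of 10 samples and CHKA exceeded DMGDH in 6 of 10. PEMT (22.1 ± 4.07 CPM per kb) and CEPT1 (17.8 ± 1.75) came next with overlapping ranges, and PEMT was the higher in 7 of 10 samples. CHDH (11.8 ± 1.32 CPM per kb) and SARDH (10.2 ± 3.44) overlapped as well, with CHDH higher in 7 of 10 samples. PCYT1A was at 5.97 ± 0.748 CPM per kb and PCYT1B at 0.254 ± 0.131. SARDH exceeded PCYT1A in 10 of 10 samples although their ranges over samples touched. The cytidylyl transferases of the choline route were thus the lowest of the 10 genes per length, and the cholinephosphotransferase was the highest. Exonic length pools all annotated transcript forms, so the level per kb of a gene with many alternative exons may be understated, which was not tested.

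**Figure D3:**
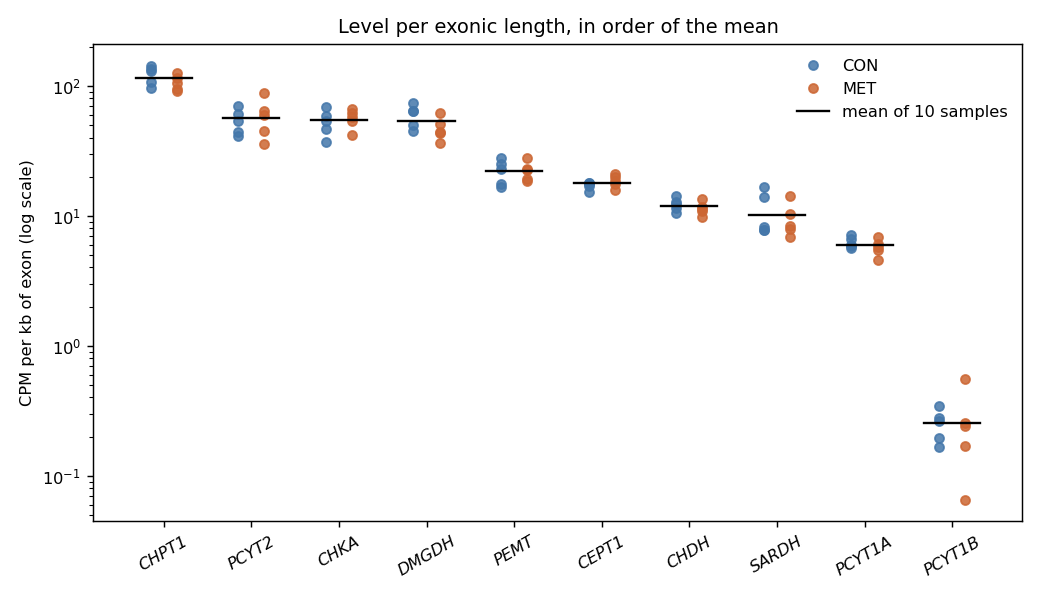
CPM per kb of exonic length on a log axis for the 10 genes in order of their mean over 10 samples (black line), with CON samples in blue and MET samples in orange. CHPT1 stands at 114 and PCYT1B at 0.254 CPM per kb, and the points of the diets overlap for each gene.

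Samples that were high or low differed from gene to gene. MET replicate 2 had the highest value of 3 of the 10 genes and MET replicate 4 the lowest of 3. CON replicate 2 lay above the 10-sample mean on the log2 scale in 8 genes, and MET replicate 2, CON replicate 5 and MET replicate 6 in 7 genes each. CON replicate 6 and MET replicate 5 lay above it in 2 genes each. High and low samples therefore occurred under both diets. Deviations of a sample from the mean reached 0.78 on the log2 scale for SARDH in CON replicate 2 and 0.69 for PCYT2 in MET replicate 2. Only PCYT1B went further, to 1.31 in MET replicate 2 and −1.77 in MET replicate 4, where few reads were counted.

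**Figure D4:**
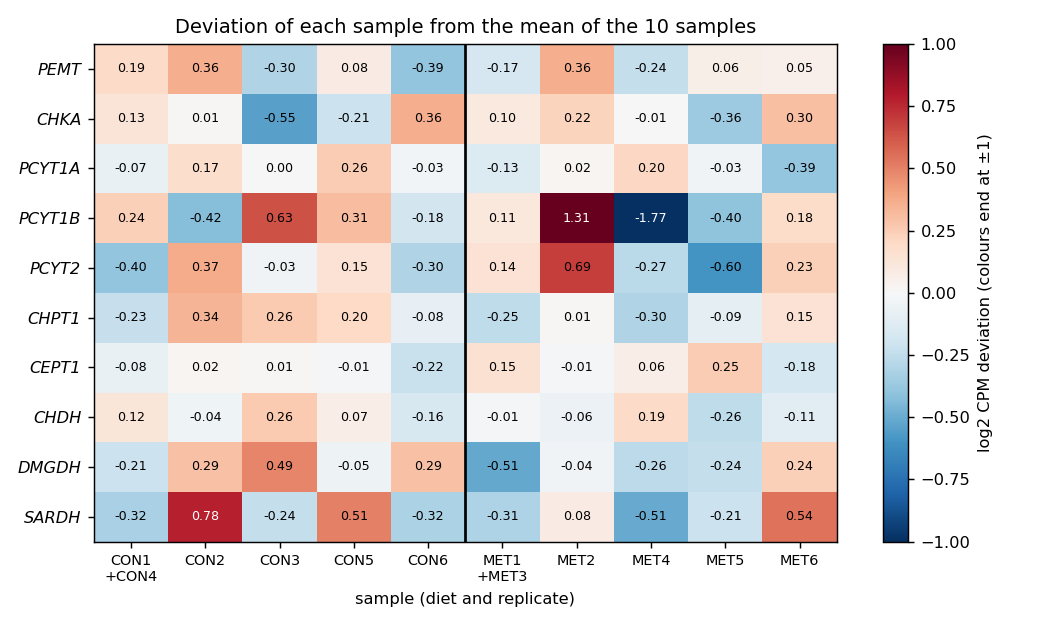
Deviation of log2 CPM from the mean of the 10 samples, by gene (rows) and sample (columns), with CON left and MET right of the black line. Red marks samples above and blue samples below the mean, and neither colour gathers on 1 side of the line across the genes.

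Around these enzymes, 57 further genes were listed in 5 groups, and 52 of them passed the filter on low counts. Of the 52, 1 was higher and 1 lower in MET at FDR at most 0.10 over the 12 libraries, where 2.09% of all genes were higher and 2.32% lower. Over the 10 samples none passed with edgeR, as for all genes tested, with 7 of 52 at an unadjusted p of at most 0.05 beside 16.4% of all genes. DESeq2 called 6 over the 12 libraries, beside 9.95% of all genes, and 2 over the 10 samples, PTDSS2 and GDPD1, beside 4.72%. The median log2 fold change of the 52 was −0.05, beside −0.003 over all genes.

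Among genes that make phosphatidylethanolamine or use ethanolamine, 8 of 9 were tested, and 1 was higher and none lower at FDR at most 0.10 over the 12 libraries, with 1 higher and 2 lower at an unadjusted p of at most 0.05, where 10.2% of all genes were higher and 10.4% lower. The gene that passed was PTDSS2, phosphatidylserine synthase 2, which makes phosphatidylserine from phosphatidylethanolamine. PTDSS2 was at 8.76, 9.05, 7.43, 11.3 and 8.20 CPM in the 5 CON samples and at 11.4, 15.4, 12.7, 11.0 and 13.2 CPM in the 5 MET samples. The diets overlapped only between the highest CON sample (replicate 5) and the lowest MET sample (replicate 5). For PTDSS2 the log2 fold change was 0.49 (standard error 0.13, edgeR FDR = 0.0781) over the 12 libraries and 0.51 (edgeR FDR = 0.180, DESeq2 FDR = 0.0706) over the 10 samples. It passed in 4 of the 12 fits that left out 1 library, with edgeR FDR between 0.0709 and 0.145. PTDSS2 has 911 exonic bases, and with the trend on gene length removed its log2 fold change was 0.34 (edgeR FDR = 0.166), under which it did not pass.

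In the group of phosphatidylcholine remodelling, breakdown and transfer, 16 of 17 genes were tested, and GDPD1 was the 1 lower gene at FDR at most 0.10 over the 12 libraries, with none higher and no other gene at an unadjusted p of at most 0.05, where all genes gave 2.32% and 20.5%. Its identity rests on the RefSeq table, which names Entrez gene 615890 GDPD1, a glycerophosphodiesterase known as a lysophospholipase D. The study lists the same gene ID as SMG8, a symbol that RefSeq gives to another gene nearby on the same chromosome, so the place of this gene in the group depends on the annotation. GDPD1 was at 27.3, 11.9, 45.5, 26.0 and 18.3 CPM in the 5 CON samples and at 6.61, 11.2, 7.48, 16.2 and 17.0 CPM in the 5 MET samples. Of the CON samples 4 lay above every MET sample, and CON replicate 2 lay among them. The log2 fold change of GDPD1 was −1.27 (standard error 0.32, edgeR FDR = 0.0724) over the 12 libraries and −1.15 (edgeR FDR = 0.186) over the 10 samples, where the DESeq2 FDR was 0.0517. It passed in 5 of the 12 fits that left out 1 library, with edgeR FDR between 0.0575 and 0.132.

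No tested gene of the other 3 groups passed FDR at most 0.10 with edgeR's default filter and diet alone in the model, over the 12 libraries or the 10 samples. In the supply of diacylglycerol and CTP, 8 of 8 genes were tested, and 1 was higher and 1 lower at an unadjusted p of at most 0.05, against the same 10.2% and 10.4% of all genes. LPIN1, a phosphatidate phosphatase that yields diacylglycerol, averaged 42.0 ± 19.9 CPM in CON (SD, n = 5) and 12.4 ± 11.8 CPM in MET (SD, n = 5), with a log2 fold change of −1.62 (edgeR FDR = 0.123 over the 12 libraries, 0.206 over the 10 samples). Of the MET samples 3 lay between 3.03 and 4.70 CPM and 2 at 22.6 and 27.9 CPM, while the CON samples lay between 24.8 and 68.5 CPM. CTPS1, which makes the CTP used by the cytidylyl transferases, averaged 33.1 ± 7.84 CPM in CON (SD, n = 5) and 43.7 ± 5.48 CPM in MET (SD, n = 5), with a log2 fold change of 0.42 (edgeR FDR = 0.124 over the 12 libraries, 0.264 over the 10 samples). LPIN1 passed under 3 of 26 alternatives, among them DESeq2 (FDR = 0.0859) and voom (FDR = 0.0826) over the 12 libraries. CTPS1 passed under 2 of 26, DESeq2 over the 12 libraries (FDR = 0.0712) and edgeR without CON replicate 6 (0.0754).

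In the use of betaine and its carbon, 13 of 13 genes were tested, and 3 were lower and none higher at an unadjusted p of at most 0.05, beside 10.4% and 10.2% of all genes. Over the 12 libraries the largest of these differences was in BHMT2, a homocysteine methyltransferase related to the betaine-dependent BHMT. BHMT itself was also among the 3, with 1337 ± 248 CPM in CON (SD, n = 5) and 1058 ± 190 CPM in MET (SD, n = 5). Its log2 fold change was −0.38 over the 12 libraries (edgeR FDR = 0.194) and −0.34 over the 10 samples (edgeR FDR = 0.366). BHMT2 was at 35.3, 13.7, 31.45, 36.4 and 24.5 CPM in the CON samples and at 18.6, 31.0, 13.5, 14.2 and 11.65 CPM in the MET samples. Most MET samples were low and most CON samples high, with CON replicate 2 and MET replicate 2 the other way. For BHMT2 the log2 fold change was −0.72 (edgeR FDR = 0.151) over the 12 libraries and −0.67 (edgeR FDR = 0.297) over the 10 samples. Over the 10 samples the estimate was larger in GLDC, a subunit of the glycine cleavage system (log2 fold change −0.69, edgeR FDR = 0.228, against −0.57 and edgeR FDR = 0.182 over the 12 libraries). BHMT2 passed under 3 of 26 alternatives, which were DESeq2 over the 12 libraries (FDR = 0.0906) and edgeR without CON replicate 2 (0.0855) or without MET replicate 2 (0.0853).

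Of 10 listed transporters of choline and betaine, 7 were tested and none had an unadjusted p of at most 0.05 across the 12 libraries, beside 20.5% of all genes. SLC44A4, a choline transporter-like protein, had 2 to 50 reads per library, was below the filter and is named here after its values were seen. It was at 0.443, 1.01, 0.572, 0.521 and 0.415 CPM in the CON samples and at 3.18, 0.781, 5.76, 1.79 and 0.619 CPM in the MET samples. The sample of MET replicates 1 and 3 and MET replicates 4 and 5 were higher than all CON samples, and MET replicates 2 and 6 were not. When the filter was set at CPM over 0.5 in 2 or more libraries (15527 genes), the SLC44A4 estimate was 2.16 ± 0.53 (SE) on the log2 scale across 12 libraries (edgeR FDR = 0.0773) and 2.07 across 10 samples (edgeR FDR = 0.194). As the gene was picked after its values were seen, these FDR values give no independent support. The size of the estimate rests on CON values close to the floor of 3 reads.

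**Figure D5:**
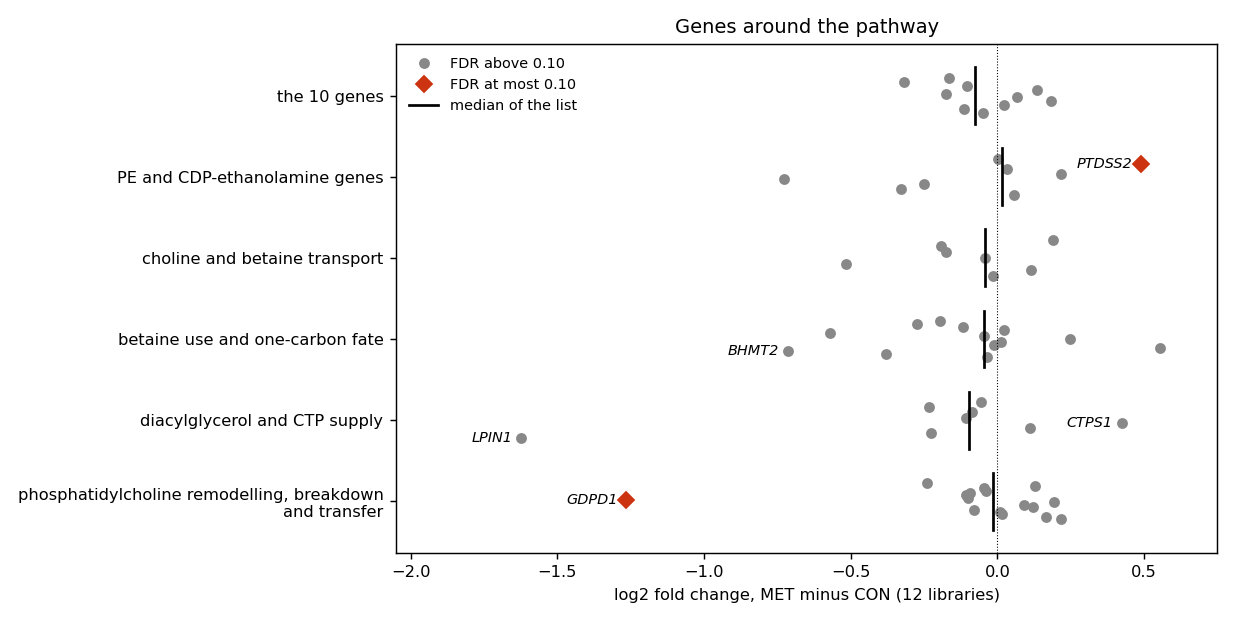
Log2 fold change, MET minus CON, over the 12 libraries for the 10 genes and the 5 groups of genes around them, with 1 point per tested gene and a black line at the median of each group. Diamonds mark PTDSS2 and GDPD1, which had edgeR FDR at most 0.10 across 12 libraries and did not pass with edgeR across 10 samples.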

How the data were processed

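Per the labels and file headers, the authors trimmed the reads with Trimmomatic 0.33, aligned them to UMD 3.1.1 with STAR 2.5.3a and counted them per gene with featureCounts 1.5.2 on the reverse strand, and deposited raw read counts per library. Multi-mapping reads and reads over several genes were not counted. Symbols came from a RefSeq table of a later assembly. No sequences were used here.

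The filterByExpr filter of edgeR at its defaults (minimum count 10, minimum total 15) retained 13212 genes out of 21227 that had reads. Diets were compared with edgeR 4.0.16 (R 4.3.3), quasi-likelihood test, diet alone, TMM, Benjamini-Hochberg adjustment over all genes tested, FDR at most 0.10. Standard errors are the log2 fold change over the square root of F, and 95% intervals rest on them. P-values over 12 libraries treat the close pairs as separate calves. Alternatives used DESeq2 1.42.0, limma 3.58.1, other scaling and filters, a loess trend on length (span 0.5), a replicate block and each library left out. The edgeR, DESeq2, voom, block and length-trend fits were tested on simulated data.

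The 10 genes and the lists were chosen with earlier results of these data known. Named from each list were genes with FDR at most 0.10, otherwise the largest rise and fall among genes with unadjusted p at most 0.05, both across 12 libraries. Outside this rule, BHMT and GLDC were named beside BHMT2, CHKB beside CHKA, and SLC44A4 after its values were seen. Figures were drawn with Python 3.11.15.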

Additional observations from a re-analysis of the deposited data

How the results depend on the processing

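None of the 10 genes passed FDR at most 0.10 under any of the 26 alternatives, of which the 2 with DESeq2 gave PCYT1B no adjusted p. The number of all genes that passed, 583 over the 12 libraries, was 107 with library size only, 238 without the filter, 1314 with DESeq2, 253 with the gene length trend removed and 6 with the replicate block, and it was 0 over the 10 samples with edgeR, alone, with the length trend removed, or with the filter of CPM above 0.5 (the last pair of settings chosen after seeing the data). With 1 library left out it ran from 26 to 564, and it was 26 without CON replicate 1 and 35 without CON replicate 4, a close pair. For the other close pair it was 203 without MET replicate 1 and 330 without MET replicate 3. The number of listed pathway genes, 2 over the 12 libraries, was 0 with library size only and 6 with DESeq2. It was 1 with the replicate block (LPIN1, at a log2 fold change of −1.998, in place of PTDSS2 and GDPD1) or the length trend removed (GDPD1). Over the 10 samples it was 2 with DESeq2. With edgeR over the 10 samples it was 0, alone, with the length trend removed or with the filter of CPM above 0.5. With 1 library left out it was 0 to 3, with 0 without CON replicates 1, 3 or 4 or MET replicates 1 or 4. Same-numbered libraries of the diets did not deviate together (r from −0.19 to 0.15, 0 of 12 libraries closest to their own number), so the block rests on a number alone, and under it PCYT1B had a log2 fold change of −0.12. Signs that turned were all of genes that did not pass. PEMT was at 0.004 with library size only, 0.011 over the 10 samples with edgeR or 0.012 with DESeq2, 0.054 with the length trend removed, 0.112 with the trend removed over the 10 samples, 0.022 with the filter of CPM above 0.5 over the 10 samples and between −0.135 and 0.022 with 1 library left out, positive without CON replicate 2. PCYT1B was at −0.17 with voom and between −0.36 and 0.21 with 1 library left out, with values of −0.07, −0.018, −0.04, −0.36 and −0.015 without CON replicates 2, 4 and 6 and MET replicates 2 and 3. With 1 library left out, CHKA ran from −0.022 (without CON replicate 3) to 0.15 and SARDH from −0.329 to 0.023 (without CON replicate 2). The other 6 genes kept their sign throughout, with DMGDH between −0.43 and −0.23. At a depth of 3 to 30 reads per library a difference in PCYT1B was not detectable here unless it was large.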
